A study of Homo sapiens with 9 samples.

Results

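The RNA levels of 49 genes of DNA replication and S phase were followed across 9 RNA libraries of MOLM-13 cells, an established line of human acute myeloid leukaemia. The genes were chosen by symbol, as genes of origin licensing, of the replication fork and of nucleotide supply, and all 49 were found among the 56541 genes of the count table. The libraries form 3 groups of 3 replicates. RNA-seq was made from cells carrying a control hairpin (shCONTROL) and from cells carrying a hairpin against BCLAF1 (shBCLAF1). RNA recovered with the BCLAF1 protein by RNA immunoprecipitation (RIP) was sequenced from cells of the shCONTROL genotype, with RNA-seq of the shCONTROL cells as its reference. No mock precipitation was used here. All 9 samples, controls included, had received doxycycline at 200 ng per µL for 4 days, and all carry batch label 1. RNA-seq used 2000000 cells per sample and RIP used 15000000 cells. All libraries were prepared with a stranded kit that removes ribosomal RNA, from total RNA in RNA-seq and from the recovered RNA in RIP. The labels name 1 hairpin genotype against BCLAF1, with no hairpin sequence and no clone, and give blood as the tissue. Nothing in them says that replicates were separate cultures, so the p-values measure only the spread between these samples, which may be technical.

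Chromosome replication begins when the origin recognition complex (ORC), CDC6 and CDT1 load the MCM2 to MCM7 helicase onto DNA in G1, and cyclin E activity then helps to start S phase. At each fork the helicase works with CDC45 and the GINS complex, the primase and polymerase alpha lay down primers, and polymerases delta and epsilon extend them while held by the sliding clamp PCNA, which the replication factor C (RFC) complex loads. Many of these genes are targets of E2F transcription factors and are transcribed most strongly around the entry into S phase. BCLAF1 is a nuclear protein linked to transcription and RNA processing.

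Levels are given in CPM, the count of a gene relative to the scaled total of its library, and differences as log2 fold changes from edgeR with p-values adjusted over all genes tested. BCLAF1 (ENSG00000029363), the targeted gene, measured 325, 328 and 312 CPM in the shCONTROL libraries, 115, 125 and 99.96 CPM in the shBCLAF1 libraries and 1147, 1059 and 1034 CPM in the RIP libraries. Its log2 change was -1.50 (SE 0.08, adjusted p = 0.000206) with the knock-down, and 1.74 (SE 0.10, adjusted p = 0.000219) in RIP against shCONTROL RNA-seq. Library totals lay between 25819144 and 36635268 estimated counts. Of the 20 myeloid markers, CD14 was at 0 in all 9 libraries, while CD33, MPO, SPI1 and FLT3 were present in every library. CLEC12A, S100A8, CEBPE and S100A9 were low in shCONTROL, at no more than 1.28, 1.00, 2.13 and 2.31 CPM. Of 14 markers of other cell types, ALB, CD3E, COL1A1, EPCAM, HBB and MS4A1 were at 0 in all 9 libraries, and CD4, NCAM1 and PECAM1 were well above 0.

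BCLAF1 knock-down was accompanied by lower RNA of much of the replication machinery. Of the 49 genes, 24 fell and 3 rose at an adjusted p under 0.05, which is what a call means here, and 22 were not called. Over all 16961 genes tested, 32.3% were called, 16.9% lower and 15.5% higher. The median log2 change of the 49 genes was -0.24, against 0.02 over all genes tested, and 40 of the 49 values were below 0. No called change reached 1 on the log2 scale, where 2.24% of all genes were lower and 1.77% higher by at least that much. The PCNA level was lowest at 51.1% of control, and the smallest fall that was called, that of RPA1, left 90.3%. The 3 shBCLAF1 libraries lay entirely below the 3 shCONTROL libraries for 30 of the 49 genes, where 25.1% of all genes tested did so, and entirely above them for 3, where 24.2% did. As a share of all estimated counts, the 49 genes together took 0.601%, 0.569% and 0.609% of the shCONTROL libraries and 0.488%, 0.490% and 0.486% of the shBCLAF1 libraries. The shBCLAF1 shares were nearly equal to each other and all lay below the shCONTROL shares. In bulk RNA, fewer cells in S phase and less of these RNAs per cell cannot be told apart. With the spread estimated in a single fit of all 9 libraries, 14 of the 49 genes were called lower. Housekeeping genes moved as well: 4 of 8 fell, 1 rose and their median log2 change was -0.21. HPRT1, PPIA and PGK1 fell, with log2 changes of -0.49, -0.26 and -0.30, and GUSB rose by 0.53. The part of this shift in the values of the replication genes was not tested.

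**Figure D1:**
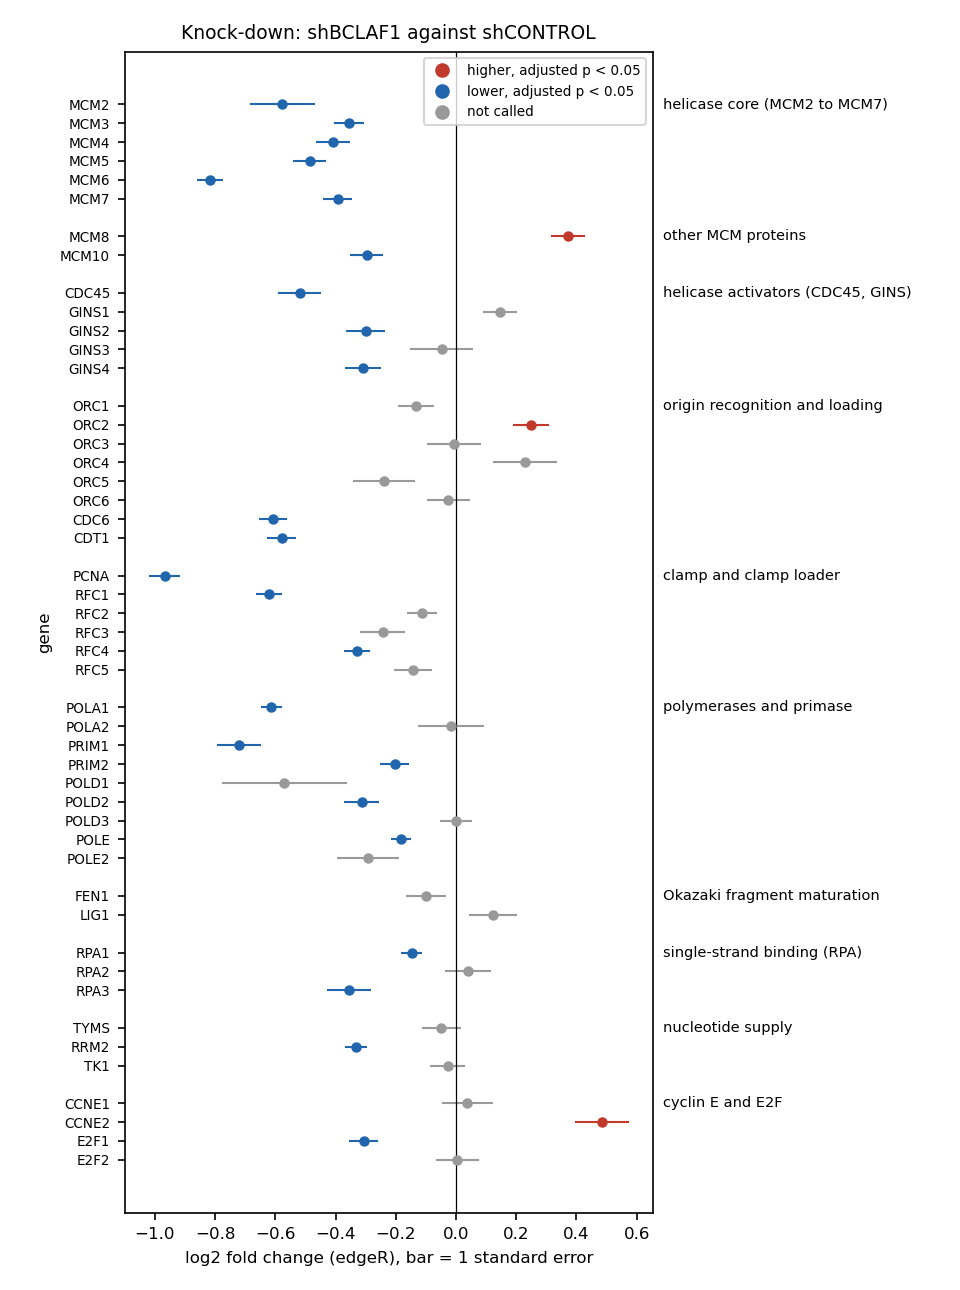
Log2 fold change of each replication gene in shBCLAF1 against shCONTROL RNA-seq (horizontal axis, 3 libraries a group), grouped by role, with a bar of 1 standard error and colour for the call. RRM1 is left out because its replicates spread far wider than those of any other gene here, and all 6 helicase core genes lie left of 0.

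Promoter sequences are printed for the 2 genes with the largest falls, PCNA and MCM6, for the clamp loader subunit RFC1, which fell with the knock-down and had the highest log2 difference of the 49 in RIP, and for MCM8, which rose. They show how genes of one pathway differ in the sequence words ahead of their start. Each line gives the 120 bases before a RefSeq transcription start on GRCh38.p14, the assembly that hg38 names, read on the gene's strand from 5′ to 3′. Capitals mark CCAAT boxes and E2F words on either strand. The stretches are chr2:135876444-135876563 for MCM6 (minus strand), chr20:5126623-5126742 for PCNA (minus strand), chr4:39366363-39366482 for RFC1 (minus strand) and chr20:5950532-5950651 for MCM8 (plus strand).
MCM6: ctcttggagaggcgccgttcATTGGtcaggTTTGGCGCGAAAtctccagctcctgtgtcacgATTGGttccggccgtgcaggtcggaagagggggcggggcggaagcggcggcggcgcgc
PCNA: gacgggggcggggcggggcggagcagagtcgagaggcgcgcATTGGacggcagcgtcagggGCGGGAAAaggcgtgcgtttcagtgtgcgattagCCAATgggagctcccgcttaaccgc
RFC1: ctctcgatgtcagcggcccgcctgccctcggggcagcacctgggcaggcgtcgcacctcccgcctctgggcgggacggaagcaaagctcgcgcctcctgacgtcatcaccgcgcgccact
MCM8: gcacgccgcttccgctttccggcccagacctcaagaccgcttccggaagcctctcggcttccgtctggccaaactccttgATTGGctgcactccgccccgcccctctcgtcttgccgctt

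The E2F words searched were TTTCCCGC, TTTGGCGC, TTTCGCGC and TTTGCCGC, and the CCAAT box was searched as CCAAT, all on both strands with overlapping matches counted. The MCM6 stretch held 2 E2F words that overlap each other and 2 CCAAT boxes. PCNA had 1 E2F word between 2 CCAAT boxes. In the RFC1 stretch neither word was found, and in the MCM8 stretch there was 1 CCAAT box, with an E2F word only after the start. Windows of 250 bases before to 50 after a start were found by symbol for 42 of the 49 genes. The window of RFC1 held 1 CCAAT box, outside the printed stretch. Of the 52 windows of these 42 genes, 21 (40.4%) held an E2F word, against 3.31% of all 35116 windows of that length in the table. A CCAAT box stood in 30 of the 52 windows (57.7%), against 34.6% of all windows. The cell-cycle homology word TTTGAA stood in 1 of the 52 (1.92%), against 15.2% of all. By gene, 11 of the 20 that fell with the knock-down and have a window held an E2F word, as did 9 of the 20 that were not called. A CCAAT box stood in 16 of the 20 that fell and in 7 of the 20 not called. Over all 27305 genes with a window, 3.99% held an E2F word and 39.7% a CCAAT box in at least 1 window. These shares were not counted by call over all genes. By the call in RIP, an E2F word stood in 3 of 9 genes that were higher, 9 of 21 that were lower and 9 of 12 not called, and a CCAAT box in 8, 11 and 6 of them. The windows set against those of the 49 genes took in genes that were not tested here, and were not matched for expression or base composition. These matches describe the sequence and carry no test.

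All 6 subunits of the MCM2 to MCM7 helicase fell with the knock-down, and in each the groups did not overlap. Their median log2 change was -0.45. MCM6 measured 263, 244 and 255 CPM in the shCONTROL libraries and 146, 138 and 147 CPM in the shBCLAF1 libraries. The spread within a group was small against this gap, and the log2 change was -0.82 (SE 0.04, adjusted p = 0.000185), which leaves 56.8% of the control level. MCM2 measured 229, 206 and 242 CPM in the shCONTROL libraries and 168, 129.6 and 155 CPM in the shBCLAF1 libraries. The shBCLAF1 libraries of MCM2 were the most uneven of the 6 subunits, and its log2 change was -0.58 (SE 0.11, adjusted p = 0.00903).

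MCM5 measured 256, 240.0 and 251 CPM in the shCONTROL libraries and 185, 181 and 166 CPM in the shBCLAF1 libraries, and its log2 change was -0.49 (SE 0.05, adjusted p = 0.00144). MCM4 measured 876, 782 and 860.0 CPM in the shCONTROL libraries and 659, 623 and 610.2 CPM in the shBCLAF1 libraries, with a log2 change of -0.41 (SE 0.06, adjusted p = 0.00294). MCM7 and MCM3 had the smaller falls of the complex. MCM7 measured 417, 383 and 412 CPM in the shCONTROL libraries and 320.3, 299.9 and 300.1 CPM in the shBCLAF1 libraries. The log2 change of MCM7 was -0.39 (SE 0.05, adjusted p = 0.002). MCM3 measured 305, 273 and 303 CPM in the shCONTROL libraries and 228, 231 and 227 CPM in the shBCLAF1 libraries. The 3 shBCLAF1 libraries of MCM3 were nearly equal, and its log2 change was -0.36 (SE 0.05, adjusted p = 0.00308). With the spread estimated in a single fit of all 9 libraries, the calls of MCM3 and MCM7 were lost, at adjusted p = 0.0681 and 0.0593.

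**Figure D2:**
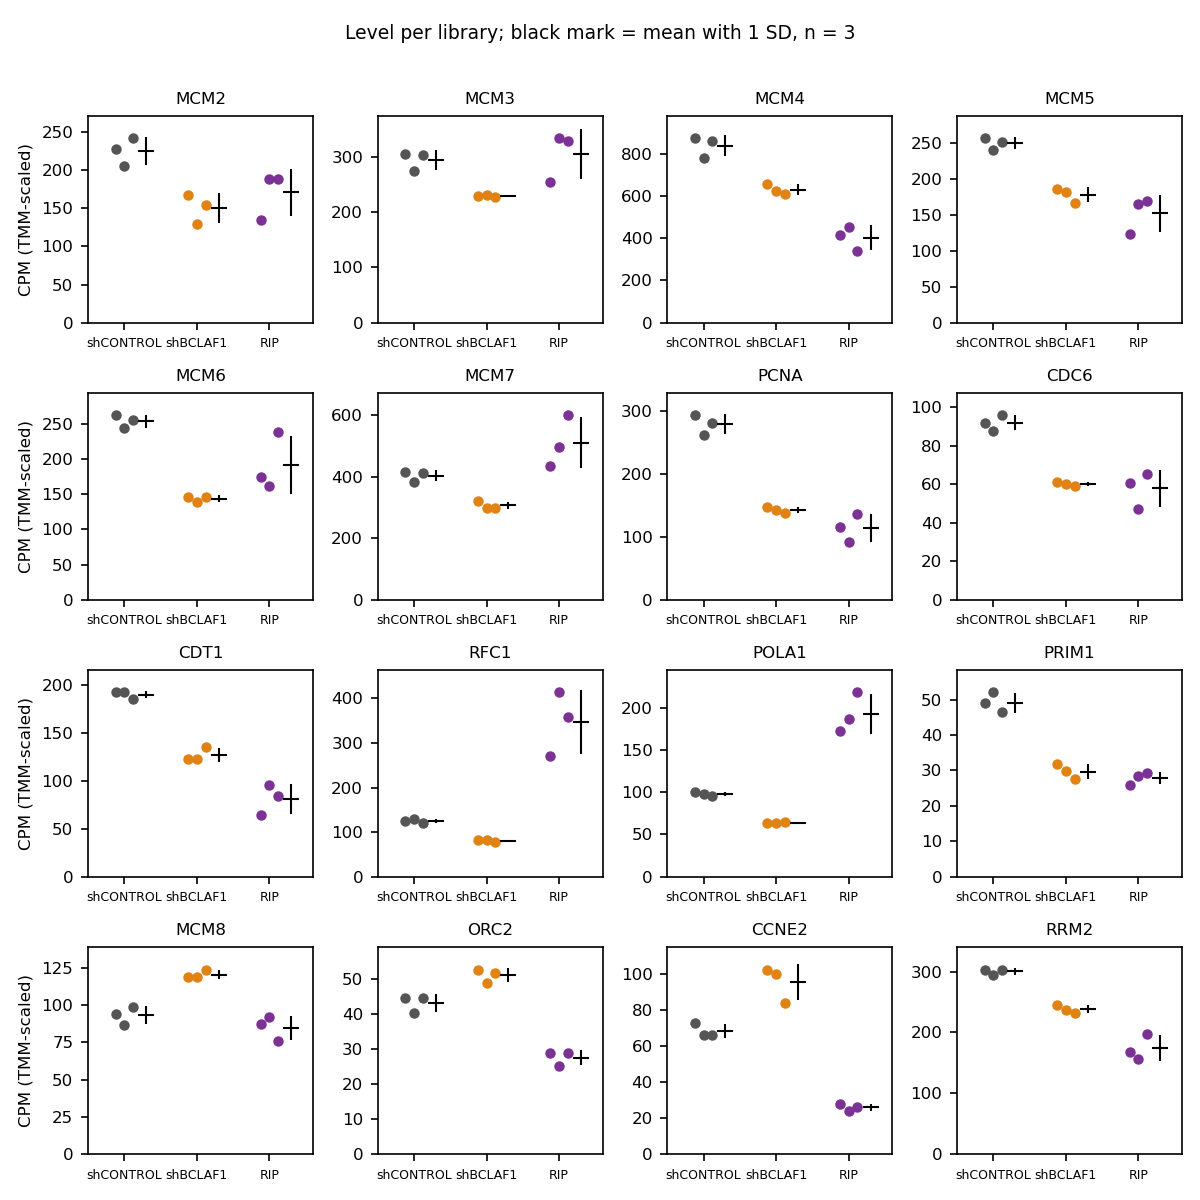
Level per library in CPM (vertical axes, each from 0) of 16 replication genes in the shCONTROL, shBCLAF1 and RIP libraries, with a black mark for the mean and 1 SD of 3 libraries. In the 13 genes that fell the shBCLAF1 points lie below the shCONTROL points, in MCM8, ORC2 and CCNE2 above them, and the RIP points of RFC1 and POLA1 lie far above both RNA-seq groups.

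The other MCM proteins and the helicase activators did not move as one. MCM8 measured 94.2, 86.9 and 98.9 CPM in the shCONTROL libraries and 119, 119 and 124 CPM in the shBCLAF1 libraries. MCM8, which works with MCM9 in recombination rather than in the replicative helicase, rose by 0.37 (SE 0.06, adjusted p = 0.00388) on the log2 scale, to 129% of control. MCM10 measured 89.5, 79.1 and 88.2 CPM in the shCONTROL libraries and 70.0, 70.0 and 68.5 CPM in the shBCLAF1 libraries. MCM10, which helps the loaded helicase to start, fell to 81.4% of control, with a log2 change of -0.30 (SE 0.06, adjusted p = 0.00923). CDC45 measured 67.7, 62.5 and 67.9 CPM in the shCONTROL libraries and 49, 46.5 and 42.2 CPM in the shBCLAF1 libraries. CDC45, the helicase cofactor, fell with a log2 change of -0.52 (SE 0.07, adjusted p = 0.00271) and no overlap between groups. Of the 4 GINS subunits, GINS4 (-0.31, adjusted p = 0.0107) and GINS2 (-0.30, adjusted p = 0.0164) fell on the log2 scale. GINS3 had a log2 change of -0.05 (adjusted p = 0.769) and GINS1 one of 0.15 (adjusted p = 0.102), and neither was called, although GINS1 was called higher with total counts (0.0434). In the single fit of all 9 libraries the adjusted p was 0.33 for MCM10, 0.216 for GINS2 and 0.0714 for GINS4, and the GINS2 call was also lost without shCONTROL replicate 1 (0.0595), shCONTROL replicate 3 (0.0505) or shBCLAF1 replicate 2 (0.0584).

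Among the 8 genes of origin recognition and loading, the loading factors fell while of the 6 ORC subunits 1 was called. Over all genes tested 32.3% were called. CDC6 measured 92.1, 87.9 and 95.9 CPM in the shCONTROL libraries and 61.4, 59.9 and 59.3 CPM in the shBCLAF1 libraries. CDC6, which joins ORC at origins to load the helicase, had a log2 change of -0.61 (SE 0.05, adjusted p = 0.000401). CDT1 measured 193, 193 and 186 CPM in the shCONTROL libraries and 123, 123 and 135 CPM in the shBCLAF1 libraries. CDT1, which brings the MCM complex to origins, had a log2 change of -0.58 (SE 0.05, adjusted p = 0.000526). Both were at about the same share of control, 65.7% and 67%, and neither overlapped between groups. ORC1 measured 76.7, 73.1 and 73 CPM in the shCONTROL libraries and 71, 69.1 and 62.5 CPM in the shBCLAF1 libraries. ORC1, the largest ORC subunit, was slightly lower in all 3 shBCLAF1 libraries, but its log2 change of -0.13 (SE 0.06, adjusted p = 0.142) was not called. ORC2 measured 44.6, 40.3 and 44.6 CPM in the shCONTROL libraries and 52.8, 49.1 and 51.7 CPM in the shBCLAF1 libraries. ORC2 rose, with a log2 change of 0.25 (SE 0.06, adjusted p = 0.0216). The log2 changes of ORC3, ORC4, ORC5 and ORC6 lay between -0.24 and 0.23 and none was called. The ORC2 call was lost in the single fit of all 9 libraries (0.0927), without shBCLAF1 replicate 1 (0.0744) and without shBCLAF1 replicate 3 (0.0525), and ORC4 was called higher without shBCLAF1 replicate 3 (0.0121).

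The sliding clamp showed the deepest fall of the 49. PCNA (ENSG00000132646) measured 294, 263 and 282 CPM in the shCONTROL libraries and 147, 143 and 138 CPM in the shBCLAF1 libraries. The highest shBCLAF1 library was far below the lowest shCONTROL library, and the log2 change was -0.97 (SE 0.05, adjusted p = 0.0002). RFC1 measured 126, 129.6 and 119.7 CPM in the shCONTROL libraries and 82.1, 82 and 79.1 CPM in the shBCLAF1 libraries. RFC1, the large subunit of the clamp loader, fell to 65% of control, a log2 change of -0.62 (SE 0.04, adjusted p = 0.00034). Of the small subunits RFC4 fell, from 47.6 ± 0.635 to 37.7 ± 0.967 CPM (SD, n = 3), with a log2 change of -0.33 (adjusted p = 0.0024). RFC2, RFC3 and RFC5 were not called, with log2 changes of -0.11, -0.24 and -0.14. RFC3 was close to the threshold (adjusted p = 0.0513) and passed it in 6 of 13 alternatives, in DESeq2 (0.0124), with DESeq2's size factors in edgeR (0.0491), without the filter on low counts (0.0464), among genes above 0 in all 9 libraries (0.0289), and without shBCLAF1 replicate 2 (0.0491) or replicate 3 (0.0256). RFC4 lost its call in the single fit of all 9 libraries (0.192).

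Polymerase alpha and primase fell in 3 of 4 subunits. PRIM1 measured 48.9, 52 and 46.4 CPM in the shCONTROL libraries and 31.7, 29.8 and 27.5 CPM in the shBCLAF1 libraries. PRIM1, the catalytic primase subunit that makes the RNA primer, had a log2 change of -0.72 (SE 0.07, adjusted p = 0.00104). POLA1 measured 99.6, 98.2 and 95.7 CPM in the shCONTROL libraries and 63.6, 63.1 and 64.6 CPM in the shBCLAF1 libraries. POLA1, the catalytic subunit of polymerase alpha, varied little within either group and had a log2 change of -0.61 (SE 0.04, adjusted p = 0.000214). POLA2 measured 50.0, 44.1 and 56.9 CPM in the shCONTROL libraries and 46, 48.1 and 54.8 CPM in the shBCLAF1 libraries. The groups of POLA2, the accessory subunit, overlapped fully, with a log2 change of -0.02 (SE 0.11, adjusted p = 0.929). PRIM2, the large primase subunit, fell from 45.2 ± 1.58 to 39.2 ± 0.964 CPM (SD, n = 3), with a log2 change of -0.20 (adjusted p = 0.0219). That call was lost in the single fit of all 9 libraries (0.335), with total counts in place of composition scaling (0.0621), and without shCONTROL replicate 1 (0.0834), shCONTROL replicate 3 (0.0967) or shBCLAF1 replicate 1 (0.0752).

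Of the replicative polymerases, POLE, the catalytic subunit of polymerase epsilon, fell slightly. POLE measured 175, 172 and 178 CPM in the shCONTROL libraries and 153, 155 and 154 CPM in the shBCLAF1 libraries. The groups of POLE did not overlap, and its log2 change was -0.18 (SE 0.03, adjusted p = 0.00739). POLD2, an accessory subunit of polymerase delta, fell from 135 ± 6.66 to 108 ± 5.65 CPM (SD, n = 3), a log2 change of -0.31 (adjusted p = 0.00797). POLD1 measured 182, 175 and 172 CPM in the shCONTROL libraries and 80.5, 132 and 143 CPM in the shBCLAF1 libraries. The first shBCLAF1 library stood well below the other two, and POLD1, the catalytic subunit of polymerase delta, was not called although the groups did not overlap, with a log2 change of -0.57 (SE 0.21, adjusted p = 0.0846). Without that library the log2 change of POLD1 was -0.35 with an adjusted p of 0.00839, and DESeq2 called it with all libraries (0.00932). POLD3 (log2 change 0.00) and POLE2 (log2 change -0.29) were not called. The POLE call was lost in the single fit of all 9 libraries (0.461).

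The genes of Okazaki fragment maturation were not called: FEN1, the flap nuclease, had a log2 change of -0.10 (SE 0.07, adjusted p = 0.312) and LIG1, the DNA ligase that seals nicks, one of 0.12 (adjusted p = 0.297). Without shCONTROL replicate 2 FEN1 was called lower (0.0401). Of the 3 RPA subunits, which coat single-stranded DNA, RPA1 fell from 126 ± 3.57 to 113 ± 1.41 CPM (SD, n = 3), with a log2 change of -0.15 (adjusted p = 0.024). RPA3 fell from 31 ± 0.702 to 24.1 ± 2.03 CPM, with a log2 change of -0.36 (adjusted p = 0.0133). RPA2 had a log2 change of 0.04 (adjusted p = 0.739). The RPA1 call was lost with total counts (0.0645), in the single fit of all 9 libraries (0.759), and without shCONTROL replicate 1 (0.0962), shCONTROL replicate 3 (0.0889) or shBCLAF1 replicate 2 (0.0683), and the RPA3 call in the single fit (0.145).

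Of the 4 nucleotide supply genes 1 fell (25%), where 16.9% of all genes tested did. RRM2 measured 303, 294 and 303 CPM in the shCONTROL libraries and 245, 237 and 232 CPM in the shBCLAF1 libraries. RRM2, the small subunit of ribonucleotide reductase, fell with a log2 change of -0.33 (SE 0.04, adjusted p = 0.00129). TYMS measured 119, 111 and 115 CPM in the shCONTROL libraries and 121, 109 and 104 CPM in the shBCLAF1 libraries. TYMS, which makes thymidylate, had overlapping groups and a log2 change of -0.05 (SE 0.06, adjusted p = 0.621). TK1 measured 77.9, 72.1 and 74.5 CPM in the shCONTROL libraries and 77.8, 68.9 and 72.9 CPM in the shBCLAF1 libraries. TK1, the salvage kinase for thymidine, also overlapped, with a log2 change of -0.03 (SE 0.06, adjusted p = 0.762). The TYMS locus overlaps ENOSF1, whose counts averaged 187% of those of TYMS, and how the counting treated such overlaps is not given in the sources used here.

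RRM1, the large subunit of ribonucleotide reductase, could not be compared. Among shCONTROL libraries it had 30, 471 and 3768 estimated counts, among shBCLAF1 libraries 36, 3475 and 42, and among RIP libraries 1732, 111 and 24. Every group thus held libraries with high and libraries with very low counts. The highest library was 123 times the lowest in shCONTROL, 97.1 times in shBCLAF1 and 81.8 times in RIP. The next widest ratios among the 49 genes were 1.29 for POLA2 in shCONTROL, 1.78 for POLD1 in shBCLAF1 and 1.89 for RPA1 in RIP, and the median ratios were 1.09, 1.10 and 1.40. The antisense entry RRM1-AS1 held at most 10 counts in any library. The log2 change of RRM1 was -0.34 (SE 1.98, adjusted p = 0.918) in the knock-down and -0.73 (SE 1.87, adjusted p = 0.763) in RIP, and leaving out shCONTROL replicate 3 turned both to 2.10 and 1.70. Without RRM1 the remaining genes took a mean share of the library of 0.589% in shCONTROL, 0.485% in shBCLAF1 and 0.461% in RIP, close to the shares with it.

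**Figure D3:**
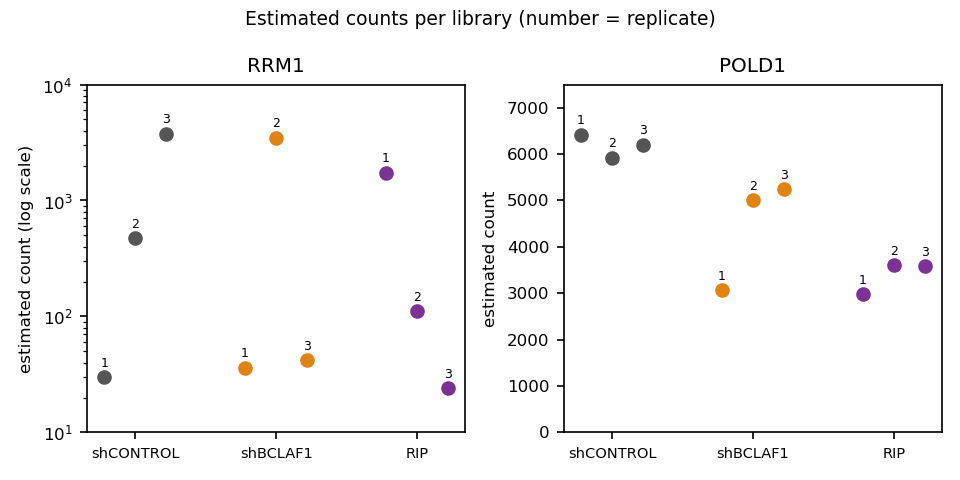
Estimated counts per library of RRM1 (left, log scale) and POLD1 (right, linear scale from 0), with the replicate number beside each point. RRM1 runs from 24 to 3768 counts with high and low libraries in every group, and in POLD1 shBCLAF1 replicate 1 lies below the other two of its group.

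The cyclin E and E2F genes were split. CCNE2 measured 73, 66.2 and 66.3 CPM in the shCONTROL libraries and 103, 100.2 and 84 CPM in the shBCLAF1 libraries. CCNE2, a cyclin E that activates CDK2, rose to 140.0% of control, the largest rise of the 49, with a log2 change of 0.49 (SE 0.09, adjusted p = 0.00844). CCNE1 measured 21.9, 18.5 and 20.4 CPM in the shCONTROL libraries and 21.8, 20.9 and 19.5 CPM in the shBCLAF1 libraries. The groups of CCNE1, the other cyclin E, overlapped, with a log2 change of 0.04 (SE 0.09, adjusted p = 0.778). E2F1 measured 45.2, 42.6 and 43.2 CPM in the shCONTROL libraries and 35.2, 34.3 and 36.2 CPM in the shBCLAF1 libraries. E2F1, an activating E2F, fell with a log2 change of -0.31 (SE 0.05, adjusted p = 0.00463) and no overlap. E2F2 measured 41.4, 35.5 and 40.9 CPM in the shCONTROL libraries and 38.7, 38.8 and 40.5 CPM in the shBCLAF1 libraries. E2F2 had a log2 change of 0.00 (SE 0.07, adjusted p = 0.97).

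Other gene lists, chosen for their place in the same pathways, were counted in the same fit. Over all genes tested 16.9% were lower and 15.5% higher. Of 25 other fork and origin factors 13 fell and 12 were not called, with a median log2 change of -0.20. Those with the smallest adjusted p were POLE3, an accessory subunit of polymerase epsilon, at -0.41 (adjusted p = 0.00232), TIPIN, of the fork protection complex, at -0.50 (adjusted p = 0.00267), and WDHD1, which links polymerase alpha to the fork, at -0.36 (adjusted p = 0.00518). Of 12 genes of replication-coupled chromatin assembly 7 fell and 5 were not called, with a median of -0.20. SLBP, which binds the stem-loop of histone mRNA, had a log2 change of -0.64 (adjusted p = 0.000377). UHRF1, which helps to keep DNA methylation, and the remodeller HELLS followed at -0.53 and -0.43.

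Other nucleotide supply genes moved both ways, with 4 of 12 lower, 3 higher and a median of -0.09. UNG, which removes uracil from DNA, had a log2 change of -0.95 (adjusted p = 0.000423) and NME1 one of -0.40. SAMHD1, which breaks down deoxynucleotides, rose by 0.48, RRM2B, an alternative small subunit of ribonucleotide reductase, by 0.50 and CMPK1 by 0.19. Of 31 G1/S regulators 11 fell and 6 rose, with a median of -0.13. DTL, which targets CDT1 for destruction, had a log2 change of -0.75 (adjusted p = 0.000401), the D-type cyclin CCND2 one of -0.71 (adjusted p = 0.000234) and the kinase WEE1 one of -0.49 (adjusted p = 0.000452). CCND3 rose by 0.42, the E2F partner TFDP1 by 0.40 and the CDK inhibitor CDKN2C by 0.32. Mitotic genes were nearer to the background, with 7 of 30 lower, 5 higher and a median of -0.04. NCAPG (-0.51), AURKB (-0.38) and NDC80 (-0.34) fell and FOXM1 (0.54), PRC1 (0.48) and KIF11 (0.17) rose.

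Myeloid markers moved with the same contrast. Of the 19 tested, 11 rose and 2 fell, with a median log2 change of 0.37, and the summed level of the 20 ran from 4663 to 5282 CPM in shCONTROL and from 7642 to 8023 CPM in shBCLAF1. S100A9, at only 1.84 to 2.31 CPM in shCONTROL, rose by 3.61 on the log2 scale. CYBB rose by 2.64 and LYZ by 1.86, while ITGAX had a log2 change of -0.41 and FLT3 one of -0.18. Their part in the fall of the replication genes was not tested.

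**Figure D4:**
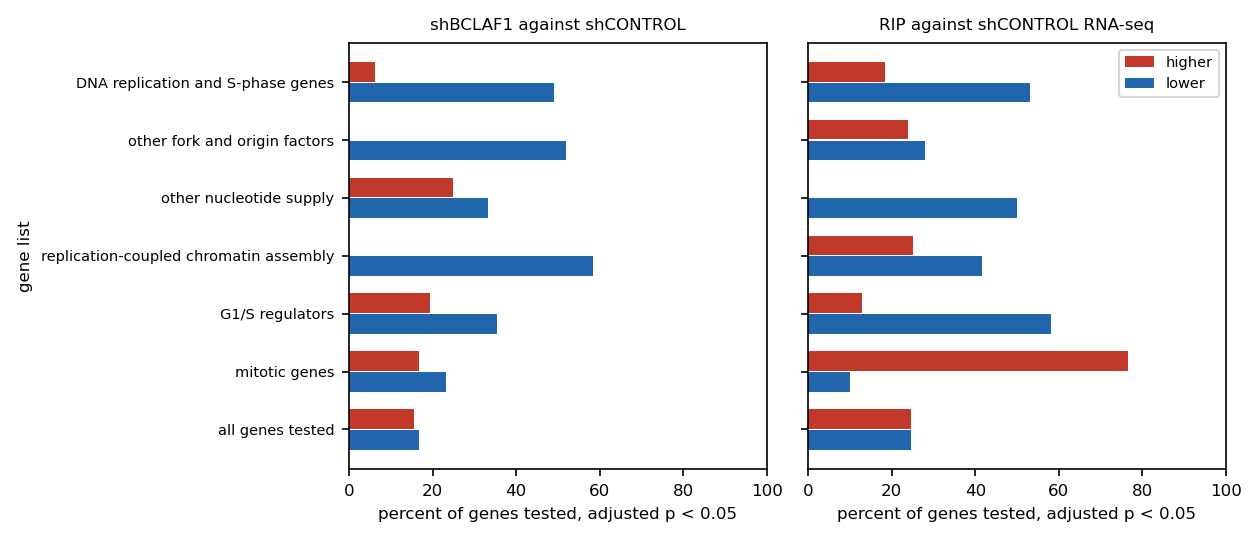
Percent of the genes of each list (vertical axis) called higher or lower at an adjusted p under 0.05, in shBCLAF1 against shCONTROL (left) and in RIP against shCONTROL RNA-seq (right). In the knock-down 49.0% of the replication genes, 52% of the other fork and origin factors and 58.3% of the chromatin assembly genes are called lower, and in RIP 76.7% of the mitotic genes are called higher.

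In the RNA recovered with BCLAF1, the replication genes were spread widely, with some well above and more below their level in total RNA. Of the 49, 9 were called higher and 26 lower in RIP than in the shCONTROL RNA-seq libraries, and 14 were not called. Of all 16727 genes tested 49.2% were called, 24.6% higher and 24.7% lower. The median log2 difference was -0.53, against -0.05 over all genes tested. With a difference of at least 1 on the log2 scale 3 of the 49 were higher and 12 lower, where 11% and 13.5% of all genes were. The groups did not overlap for 11 genes higher in RIP and 29 lower, against 31.9% and 35.1% of all genes. None of the 49 genes was at 0 in any RIP library, so lower here means a smaller share than in total RNA. The 49 genes together took 0.453%, 0.442% and 0.496% of the RIP libraries, all below the shCONTROL shares. RIP libraries also differed from RNA-seq in other lists: 23 of 30 mitotic genes were higher, with a median of 1.07 and HMMR, BUB1B and DLGAP5 at 1.99, 1.70 and 1.39, and 7 of 8 housekeeping genes were lower, with a median of -1.27. Of the 19 myeloid markers tested 3 were higher and 8 lower, and the summed level of the 20 ran from 2772 to 2977 CPM in RIP. The part of these lists in the differences of the replication genes was not tested. RIP and knock-down were both set against the same 3 shCONTROL libraries. The RIP replicates were less alike, with a median ratio of highest to lowest library of 1.40 over the 49 genes against 1.09 in shCONTROL.

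**Figure D5:**
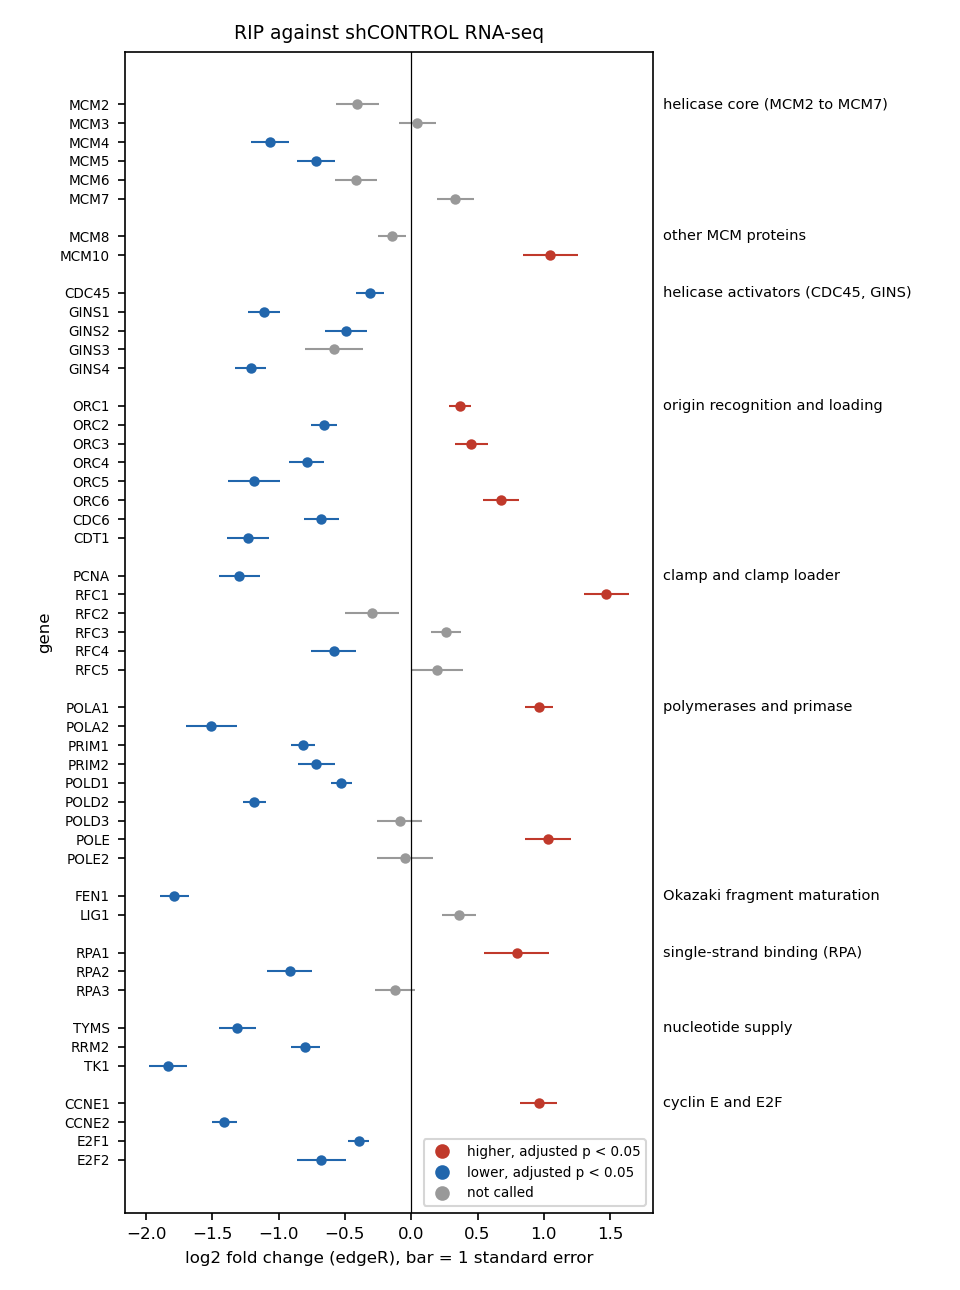
Log2 fold change of each replication gene in RIP against shCONTROL RNA-seq (horizontal axis, 3 libraries a group), grouped by role, with a bar of 1 standard error and colour for the call. RRM1 is left out as before, RFC1 lies furthest right, and TK1 and FEN1 lie furthest left.

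The largest log2 difference above 0 was that of RFC1 (ENSG00000035928), with 271, 413 and 359 CPM in RIP. All 3 RIP libraries were far above every shCONTROL library, and the log2 difference was 1.47 (SE 0.17, adjusted p = 0.00108). PCNA, the clamp that RFC1 loads, went the other way. It measured 116, 91.6 and 136 CPM in RIP, with no overlap and a log2 difference of -1.30 (SE 0.15, adjusted p = 0.00115). RFC4 was lower by the test at -0.58 (SE 0.17, adjusted p = 0.0299), and RFC2, RFC3 and RFC5 were not called. The RFC4 call was lost without any 1 of the 3 shCONTROL libraries (0.0828, 0.0804 and 0.0873) and without RIP replicate 1 (0.0568), RFC2 was called lower without RIP replicate 3 (0.00407), and RFC3 higher without RIP replicate 2 (0.0145). With shCONTROL and shBCLAF1 RNA-seq averaged as the reference, the log2 difference of PCNA was -0.80 and RFC3 was called higher (0.0083). This averaged reference includes the shBCLAF1 libraries, so each value under it carries part of the knock-down change of that gene. Shifts under it are therefore no separate check of a RIP call.

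Of the 9 polymerase and primase genes 2 were higher in RIP (22.2%) and 5 lower (55.6%). Over all genes tested 24.6% were higher and 24.7% lower. POLA1 measured 172, 186 and 218 CPM in RIP, all above shCONTROL, with a log2 difference of 0.96 (SE 0.11, adjusted p = 0.00096). POLE measured 308, 452 and 317 CPM, also all above, with a log2 difference of 1.03 (SE 0.17, adjusted p = 0.00397). POLA2, the partner of POLA1, measured 21.5, 13.5 and 18.4 CPM, all below shCONTROL, with a log2 difference of -1.51 (SE 0.19, adjusted p = 0.00155). The primase genes were lower too. PRIM1 measured 26, 28.5 and 29.3 CPM in RIP, with a log2 difference of -0.82 (SE 0.09, adjusted p = 0.000948), and PRIM2 differed by -0.71 (adjusted p = 0.00749). POLD2 differed by -1.18 (adjusted p = 0.000302). POLD1 measured 117, 127 and 124 CPM, with a log2 difference of -0.53 (SE 0.08, adjusted p = 0.00263). POLD3 and POLE2 were not called, at -0.09 and -0.05. With the averaged reference the POLD1 call was lost (-0.23, adjusted p = 0.245) and PRIM1 was at -0.45.

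In the helicase core 2 of 6 genes were lower in RIP (33.3%) and 4 were not called, where 24.7% of all genes tested were lower. MCM4 measured 418, 452 and 339.9 CPM, all below the shCONTROL libraries, with a log2 difference of -1.06 (SE 0.14, adjusted p = 0.00175). MCM5 measured 123, 165 and 169 CPM, with a log2 difference of -0.72 (SE 0.14, adjusted p = 0.00781). The RIP libraries of MCM2 (135, 189 and 189 CPM) and MCM6 (174, 161 and 238 CPM) were all below shCONTROL, with log2 differences of -0.41 (SE 0.16, adjusted p = 0.0825) and -0.42 (SE 0.16, adjusted p = 0.0708), and neither was called. MCM7 (435, 498 and 601 CPM) was above shCONTROL in all 3 libraries, with a log2 difference of 0.33 (SE 0.14, adjusted p = 0.0962), and MCM3 (253, 333 and 328 CPM) overlapped, at 0.05 (SE 0.14, adjusted p = 0.796). Without RIP replicate 3 the adjusted p of MCM6 was 0.00328, and without RIP replicate 1 that of MCM7 was 0.0308. MCM10 stood out from the other MCM genes with 151, 146 and 238 CPM, all above shCONTROL, and a log2 difference of 1.05 (SE 0.21, adjusted p = 0.00732). MCM8 (87.1, 91.7 and 76 CPM) was not called, at -0.14 (SE 0.11, adjusted p = 0.309). With total counts MCM2 (0.0174) and MCM6 (0.0334) were called lower, and with the averaged reference MCM7 (0.00173) was called higher, MCM8 (0.00633) lower and MCM5 stood at -0.47. With that reference MCM2 stood at -0.11 (adjusted p = 0.498) and MCM6 at -0.00054 (adjusted p = 0.9998). Among genes above 0 in all 9 libraries MCM2 (0.0485) and MCM6 (0.0427) were called lower, and in the single fit MCM6 was lower (0.0342) and MCM7 higher (0.038).

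Of the 5 helicase activators 4 were lower in RIP, where 24.7% of all genes tested were. GINS4 and GINS1 differed most, at -1.21 (SE 0.12, adjusted p = 0.000664) and -1.11 (SE 0.12, adjusted p = 0.000887), while GINS2 was at -0.49 (adjusted p = 0.0457) and GINS3 was not called, at -0.58 (adjusted p = 0.0686). CDC45 measured 53.1, 47.6 and 59.8 CPM in RIP, below shCONTROL in all 3 libraries, with a log2 difference of -0.31 (SE 0.10, adjusted p = 0.0486). The CDC45 call was lost in 9 of 14 alternatives and the GINS2 call in 8, among them the loss of any 1 shCONTROL library (CDC45 0.148, 0.0786 and 0.146, GINS2 0.139, 0.0904 and 0.104) or of RIP replicate 1 (0.109 and 0.0826), and for CDC45 of RIP replicate 2 (0.0793). With the averaged reference CDC45 stood at -0.04 (adjusted p = 0.699) and GINS2 at -0.33 (0.0514). Both calls were also lost with DESeq2's size factors in edgeR (0.0707 and 0.0577), without the filter on low counts (0.0596 and 0.0552) and under the replicate block (0.0631 and 0.0543). GINS3 was called lower in 5 of 14 alternatives, with total counts (0.0492), among genes above 0 in all 9 libraries (0.0405), in the single fit (0.0382), with the averaged reference (0.0258) and without RIP replicate 3 (0.0219).

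All 8 origin genes were called in RIP, 3 higher and 5 lower, so that subunits of the recognition complex were on both sides. Over all genes tested 24.6% were called higher and 24.7% lower. ORC6 was higher, from 40.9 ± 1.93 in shCONTROL to 65.9 ± 11.3 CPM in RIP (SD, n = 3), with a log2 difference of 0.68 (adjusted p = 0.00792). ORC1 measured 89.1, 102 and 98 CPM, above shCONTROL in all 3 libraries, with a log2 difference of 0.37 (SE 0.09, adjusted p = 0.0138). ORC3 was at 0.45 (adjusted p = 0.0249). ORC2 measured 28.8, 25 and 28.8 CPM, all below shCONTROL, with a log2 difference of -0.65 (SE 0.10, adjusted p = 0.00264). ORC5 and ORC4 were at -1.18 and -0.79. The loading factors were lower. CDT1 measured 64.2, 95.6 and 84.7 CPM, with a log2 difference of -1.23 (SE 0.16, adjusted p = 0.00157), and CDC6 measured 60.6, 47.2 and 65.6 CPM, with one of -0.68 (SE 0.13, adjusted p = 0.00665). Neither overlapped with shCONTROL. The ORC1 call was lost without shCONTROL replicate 2 (0.0629) or replicate 3 (0.0655), and the ORC3 call with total counts (0.115) and without any 1 shCONTROL library (0.0781, 0.0884 and 0.0765), RIP replicate 1 (0.0689) or RIP replicate 3 (0.0602). With the averaged reference CDC6 was at -0.36.

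The most negative difference of the 49 in RIP was in a gene of nucleotide supply. TK1 measured 17, 22 and 24 CPM, 28% of the shCONTROL level, with a log2 difference of -1.83 (SE 0.15, adjusted p = 0.000368). TYMS measured 46.7, 38.1 and 55.3 CPM, with a log2 difference of -1.31 (SE 0.14, adjusted p = 0.000852). RRM2 measured 168, 156 and 197 CPM, with a log2 difference of -0.80 (SE 0.11, adjusted p = 0.00182). In none of these 3 did a RIP library reach a shCONTROL library. FEN1 differed almost as much as TK1. It measured 108, 92.1 and 106 CPM in shCONTROL and 27.2, 31.2 and 30.5 CPM in RIP, with a log2 difference of -1.79 (SE 0.11, adjusted p = 0.000234). LIG1 was at 0.36 (adjusted p = 0.0625), and was called higher without RIP replicate 1 (0.0283), in DESeq2 (0.0382), in the single fit of all 9 libraries (0.0238) and with the averaged reference (0.0237).

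The RPA subunits differed from each other. RPA1 measured 182, 165 and 312 CPM in RIP, with the third library far above the others, and a log2 difference of 0.79 (SE 0.25, adjusted p = 0.038). Without that library the difference was 0.46 (adjusted p = 0.00652), and the call was lost without any 1 shCONTROL library (0.0979, 0.112 and 0.107) and with total counts (0.0615). RPA2 was lower at -0.92 (adjusted p = 0.0057). RPA3 was at -0.12 and not called, but was called lower without RIP replicate 3 (0.0324).

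The cyclin E genes were on opposite sides in RIP. CCNE1 measured 44.9, 33.3 and 41.2 CPM, all above shCONTROL, with a log2 difference of 0.96 (SE 0.14, adjusted p = 0.00231). CCNE2 (ENSG00000175305) measured 27.7, 23.8 and 26.1 CPM, all below shCONTROL, with a log2 difference of -1.41 (SE 0.09, adjusted p = 0.000272). E2F1 measured 32.8, 34.3 and 32.9 CPM, nearly equal in the 3 libraries, with a log2 difference of -0.40 (SE 0.08, adjusted p = 0.00759). E2F2 measured 21.5, 31 and 21.4 CPM, with one of -0.68 (SE 0.18, adjusted p = 0.0232). The E2F2 call was lost without shCONTROL replicate 1 (0.079) or 3 (0.076) and without RIP replicate 1 (0.0575) or 3 (0.0613). With the averaged reference E2F1 was at -0.24.

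The related lists were counted in RIP as well. Of the 25 other fork and origin factors 6 were higher (24%) and 7 lower (28%), with a median of 0.02. These shares were near those over all genes tested, 24.6% higher and 24.7% lower. TIMELESS, of the fork protection complex, was at 1.07 (adjusted p = 0.000692), WDHD1 at 0.57 and MCM9 at 0.47, and RNASEH2A, which removes ribonucleotides from DNA, was at -1.51 (adjusted p = 0.000288), MCMBP at -0.97 and POLD4 at -0.79. Of the 12 other nucleotide supply genes 6 were lower and 6 were not called, with a median of -0.63. DUT, which clears dUTP, was at -1.75 (adjusted p = 0.000367), DCTPP1 at -1.98 and UNG at -1.33. Of the 12 chromatin assembly genes 3 were higher (25%, near the share over all genes tested) and 5 lower (41.7%). Both subunits of the histone chaperone FACT were higher, SUPT16H at 1.02 (adjusted p = 0.00139) and SSRP1 at 0.77, as was the methyltransferase DNMT1 at 0.98, while the histone chaperones ASF1A and ASF1B were at -1.72 (adjusted p = 0.000204) and -1.72 (adjusted p = 0.000219) and HELLS at -1.01. Of the 31 G1/S regulators 4 were higher and 18 lower, with TFDP1 at 1.83 (adjusted p = 0.000296), E2F4 at 0.60 and CDKN1B at 0.37 above, and CCND3 at -1.72 (adjusted p = 0.000209), CCNA2 at -1.24 and RB1 at -1.10 below.

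Set side by side, the calls of the 2 contrasts combined in several ways, and both rest on the same control libraries. Of the 24 genes that fell with the knock-down, 5 were higher in RIP (MCM10, RFC1, POLA1, POLE and RPA1), 14 were lower and 5 were not called. Of the 3 that rose, ORC2 and CCNE2 were lower in RIP and MCM8 was not called. Of the 22 not called in the knock-down, 4 were higher in RIP (ORC1, ORC3, ORC6 and CCNE1), 10 were lower and 8 were called in neither. For comparison, 9 of all 49 genes (18.4%) were higher in RIP and 26 (53.1%) lower. Joint calls were not counted over all genes tested, and a link between the 2 contrasts was not tested. PCNA and RFC1 illustrate the range: the log2 change with the knock-down was -0.97 for PCNA and -0.62 for RFC1, and the log2 difference in RIP was -1.30 and 1.47.

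Gene length was looked at as a feature that the choice of genes did not use. On GRCh38.p14 the 49 genes span a median of 33.7 kb from first to last base. The 9 genes higher in RIP had a median span of 63.6 kb (8.74 to 303), the 26 lower ones 19.0 kb (4.33 to 425) and the 14 not called 40.5 kb. The same order of higher over lower held over all genes tested with a span, with medians of 32.2 kb for 3705 higher genes and 16.5 kb for 3625 lower ones, but there the genes not called were at 19.1 kb. Across genes, Spearman's rho between span and the log2 difference in RIP was 0.35 over the 49 genes and 0.20 over 13833 genes. In the knock-down it was 0.09 over the 49 and -0.02 over 13913 genes. These are descriptions over genes that share the same 6 libraries and their depth, and genes are not independent replicates. POLA1 (chrX:24693918-24996986) was the longest of the higher genes, and PRIM2 (chr6:57221540-57646850), the longest of all 49, was lower.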

How the data were processed

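RNA of MOLM-13 cells was sequenced in 9 libraries, 3 each of shCONTROL RNA-seq, shBCLAF1 RNA-seq and BCLAF1 RIP, and groups follow the labels. The authors deposited a table of estimated counts per gene, whole numbers that were used without rounding. STAR 2.7.11b, StringTie 2.2.3 and genome build hg38 are named in the submitters' processing notes, while the annotation, the treatment of overlapping genes and the use of strand in counting are not given in the sources used here. The table holds 1 entry that names no gene, which took 2.18% to 3.75% of the counts in 8 libraries and has no value in RIP replicate 1, and it was left out of totals and tests. Totals per library were 25819144 to 36635268 counts, and the spread between replicates includes counting error.

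Genes were tested with edgeR 4.0.16 in R 4.3.3 (glmQLFit and glmQLFTest after filterByExpr, TMM scaling, prior count 2), with the groups compared in the fit and Benjamini-Hochberg adjustment over all genes tested, at a threshold of 0.05. CPM values are TMM-scaled. A call is an adjusted p under that threshold. The scripts were tested on simulated data. The alternatives were DESeq2 1.42.0, other scalings and filters, a single fit of all 9 libraries, the replicate number as a block, another RIP reference, a minimum log2 change of 1 and each replicate left out.

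The 49 genes and the other lists were chosen with earlier results of these data known, so lists are described by counts and medians and carry no test. Values per library are given for MCM2 to MCM7, PCNA, CDC6, CDT1, ORC1, CDC45, RRM1, RRM2, TYMS, TK1, CCNE1, CCNE2, E2F1 and E2F2, for up to 5 genes with the highest and 5 with the lowest log2 change among those called in each contrast, and for any of the 49 at 0 in a library, of which there were 0. From the other lists up to 3 genes per contrast and direction with the smallest adjusted p are named. Some genes of these lists are not reported here. POLD1, RPA1 and further genes outside this rule were named after their values were seen. Spans and promoter sequences come from RefSeq tables of GRCh38.p14, in which promoters of 42 of the 49 genes were found. Python 3.11.15 was used for sequences and figures. Transcript lengths were not used, so levels are not compared between genes.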

Additional observations from a re-analysis of the deposited data

How the results depend on the processing

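Of the 24 genes that fell with the knock-down, 14 kept their call and direction in all 13 alternatives, as did 2 of the 3 that rose. In RIP 21 of the 26 lower and 6 of the 9 higher genes did so in all 14 alternatives. The 10, 1, 5 and 3 others lost their call in at least 1, and the cause was not tested. No called gene changed sign. For the knock-down the median log2 change of the 49 genes was -0.24, and it was -0.19 with total counts and -0.18 without shBCLAF1 replicate 3, with a range of -0.27 to -0.18 when single replicates were left out. The number lower was 24, 14 in the single fit of all 9 libraries and 21 to 25 with replicates left out. With a minimum log2 change of 1 the counts were 0 higher and 0 lower. In RIP the median was -0.53, and -0.33 with shCONTROL and shBCLAF1 RNA-seq averaged as the reference, which carries part of the knock-down change. The counts of 9 higher and 26 lower became 3 and 12 with that minimum, and 6 to 10 and 22 to 29 with replicates left out. Total counts moved the median of all genes by 0.05 in the knock-down and by -0.11 in RIP.

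Only genes not called changed sign in these alternatives. In the knock-down these were, with total counts, GINS3 0.0024, ORC3 0.043, ORC6 0.026, POLA2 0.036, POLD3 0.051, TK1 0.024, TYMS 0.0015, E2F2 without the filter on low counts (-0.0064) and POLD3 among genes above 0 in all 9 libraries (0.00039). With replicates left out the log2 changes ran as follows: CCNE1 -0.017 to 0.11, E2F2 -0.055 to 0.056, GINS3 -0.099 to 0.047, ORC3 -0.074 to 0.085, ORC6 -0.073 to 0.029, POLA2 -0.094 to 0.087, POLD3 -0.030 to 0.032, RPA2 -0.025 to 0.10, RRM1 -5.18 to 2.10, TK1 -0.073 to 0.014. In RIP they were MCM3 with total counts (-0.077), and POLE2 (0.11) and RPA3 (0.065) with that averaged reference. With replicates left out the log2 differences ran as follows: MCM3 -0.031 to 0.17, POLD3 -0.23 to 0.078, POLE2 -0.16 to 0.16, RFC5 -0.012 to 0.37, RRM1 -4.03 to 1.70.

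With the replicate number as a block, 3 genes were higher and 23 lower in the knock-down, where PRIM2 lost its call (adjusted p = 0.0555), and 7 were higher and 23 lower in RIP, where CDC45 (0.0631), GINS2 (0.0543), ORC1 (0.0617), RPA1 (0.0632) and E2F2 (0.0637) lost theirs. The medians under the block were -0.25 and -0.53. The labels give only a number and do not say what same-numbered samples share. The deviations of same-numbered libraries from their group means correlated at 0.108, -0.017 and 0.075 in the knock-down and at 0.0099, 0.046 and 0.027 in RIP, over 11684 genes. Differently numbered pairs ran from -0.104 to 0.027 in the knock-down and from -0.066 to 0.044 in RIP. Whether the samples were paired cannot be told from these values. Counts were low only for RRM1 in its low libraries, and 3 libraries a group limit the precision.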
